A study of Mus musculus with 15 samples.

Results

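The 9 genes described here encode the interleukin-1 cytokines Il1a, Il1b and Il18, the antagonist Il1rn, and the inflammasome components Nlrp3, Pycard, Casp1, Casp4 and Gsdmd. They were chosen by name, and each had 1 row among the 53379 gene rows of the table, of which 24520 had any read. The study asked what MLL-ENL-transformed mouse myeloid cells require of the transcription factors C/EBPα and C/EBPβ. RNA-seq was analysed in 5 groups of 3 libraries. In all groups, fetal liver cells carrying floxed Cebpa and Cebpb alleles had been transformed with an MLL-ENL retrovirus and were kept in IL-3 at 10 ng/ml. The wild-type (WT) cells of clones C1 and C2 had not lost these alleles. The double-knockout (dKO) cells of each clone were Cebpa KO and Cebpb KO after TAT-Cre treatment and carried exogenous GFP. The LAPS cells were dKO cells of C1 that carried GFP and LAP*, an isoform of rat C/EBPβ. Each line is a single clone, C1 and C2 come from different mice, and dKO clones were rare survivors of the deletion. A difference of dKO from WT cells is called the knockout effect below. It cannot be told apart from that of TAT-Cre treatment, GFP or the selection of a rare clone. The 3 RNA samples of a line were isolated at different times, so p-values measure the spread between cultures of 1 clone and not between animals.

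Interleukin-1 and interleukin-18 are cytokines of innate immunity that macrophages and monocytes release. Il1b and Il18 are made as inactive precursors, and caspase-1 cleaves them after a sensor such as NLRP3 has assembled with the adaptor ASC, the product of Pycard, into an inflammasome. Caspase-11, the product of mouse Casp4, responds to cytosolic bacterial lipopolysaccharide, and both caspases cleave gasdermin D, whose fragment opens pores in the membrane. Il1rn encodes the antagonist that occupies the IL-1 receptor without signalling. RNA levels give no measure of cleavage or release.

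The labels were checked on the deleted genes. Cebpa and Cebpb had 0 reads in all 6 dKO libraries, while Cebpb ran from 1353 to 1634 normalized reads in the 6 WT libraries. Cebpe had a median of 380 normalized reads in C1 WT and 2027 in C1 dKO libraries, and of 501 and 2155 in C2. The part of this rise in the values below was not tested. The LAPS libraries had 2538 to 4216 normalized reads at Cebpb, and whether reads from the rat sequence account for them was not tested. Of 8 markers of transformed myeloid progenitors, all 8 passed the filter on low values and none was at the floor of 3 reads in any group. Depth was 9212237 to 13613500 gene-assigned reads. The values below are normalized reads, which are reads divided by 1 size factor per library. In bulk RNA, fewer cells of a type and less RNA per cell cannot be told apart.

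All 9 genes passed the filter, which asked for 10 normalized reads or more in no fewer than 3 libraries and kept 12673 genes. Il1a and Il18 passed only through the C1 WT libraries, so for these genes a difference from C1 WT was partly built into the selection. limma called a gene at a Benjamini-Hochberg adjusted p under 0.05 over all genes tested. The C1 WT libraries serve in several comparisons, which are therefore not independent of each other.

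In C1, 6 of the 9 genes were lower in dKO than in WT cells and 0 were higher. Over all genes, 19.9% were called lower and 17.1% higher, or 2516 and 2170 genes, against 2052 and 2681 with quantile normalization. The genes called were Il1a, Il1b, Il18, Il1rn, Casp1 and Casp4. Leaving out Il1a and Il18, which passed the filter only through C1 WT, 4 of 7 genes were lower. The median log2 fold change of the 9 genes was -0.99, beside -0.01 over all genes. Without WT replicate 2, 4 of the 8 genes still tested were called lower, because Il1a no longer passed the filter and Il1rn was no longer called.

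In C2, 3 genes were lower in dKO cells, namely Il1rn, Pycard and Casp4, and 1 was higher, Casp1. Over all genes, 20.1% were called lower and 17.4% higher, so 1 higher call stands near that background. These shares are 2549 and 2211 genes, against 2289 and 2416 with quantile normalization. The median log2 fold change was -0.59, beside -0.03 over all genes. Without WT replicate 1 of C2, Nlrp3 was also called and 4 genes were lower. Without WT replicate 2 or dKO replicate 3 of C2, Pycard was not called and 2 genes were lower.

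The effect of the knockout was compared between the clones as the C2 change minus the C1 change. Il1a, Il1b, Casp1 and Casp4 were called with a higher value in C2, 4 of 9 genes against 15.1% of all genes, and 0 were called lower, against 14.3%. These shares are 1910 and 1810 genes, against 1752 and 1923 with quantile normalization. Il1a belongs to the count of 4 although both C2 groups lay at the floor, where a further fall could not be measured. Il1b had at most 11 reads in any C2 library, so a fall of the C1 size could not be measured there either. Leaving out Il1a and Il18, which passed the filter only through C1 WT, 3 of 7 genes were called higher and 0 lower. edgeR and DESeq2 did not call Il1a (adjusted p = 1 and 0.074) and each called the other 3. The count of 4 fell to 2 without C1 WT replicate 1 and to 2 without C1 WT replicate 2, where Il1a was not tested and Casp4 not called. It counted 1 gene lower, Il1rn, without C2 WT replicate 1.

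Adding LAP* to the dKO cells of C1 was followed by no call in limma among the 9 genes, with 0 higher and 0 lower. Over all genes, 1.43% were called higher and 3.03% lower. At an unadjusted p under 0.05, 0 were higher and 2 lower, Casp1 and Casp4, where 7.72% of all genes were higher and 10.2% lower. edgeR and DESeq2 also called 0 at the adjusted threshold, while limma on only the groups compared called Il1rn lower (adjusted p = 0.044). Against C1 WT, 7 genes were lower in LAPS cells and 0 higher, where 18.3% and 14.2% of all genes were called lower and higher. These shares are 2322 and 1796 genes, against 1910 and 2521 with quantile normalization. The 7 genes were the 6 called lower in dKO cells and Nlrp3, or 5 of 7 without Il1a and Il18. Without C1 WT replicate 2, 4 of the 8 genes tested were called.

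The parental clones themselves differed. Of the 9 genes, 8 were lower in C2 WT than in C1 WT cells and 0 were higher, while 21.3% and 19.7% of all genes were called lower and higher. These shares are 2699 and 2493 genes, against 2378 and 2886 with quantile normalization. Only Pycard was not called in this comparison, and without Il1a and Il18, 6 of 7 genes were lower. Markers of other cells moved with this difference: 8 of 10 monocyte and macrophage markers were lower and 0 higher, with a median log2 fold change of -2.98, and 6 of 10 neutrophil markers were higher and 1 lower. Cx3cr1 passed the filter only through C1 WT and C1 dKO libraries, and Retnlg only through C2 WT. Their differences were therefore partly built into the selection. Without Cx3cr1, 7 of 9 monocyte and macrophage markers were lower, and without Retnlg, 5 of 9 neutrophil markers were higher and 1 lower. The part of these markers in the difference between the clones was not tested.

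**Figure D1:**
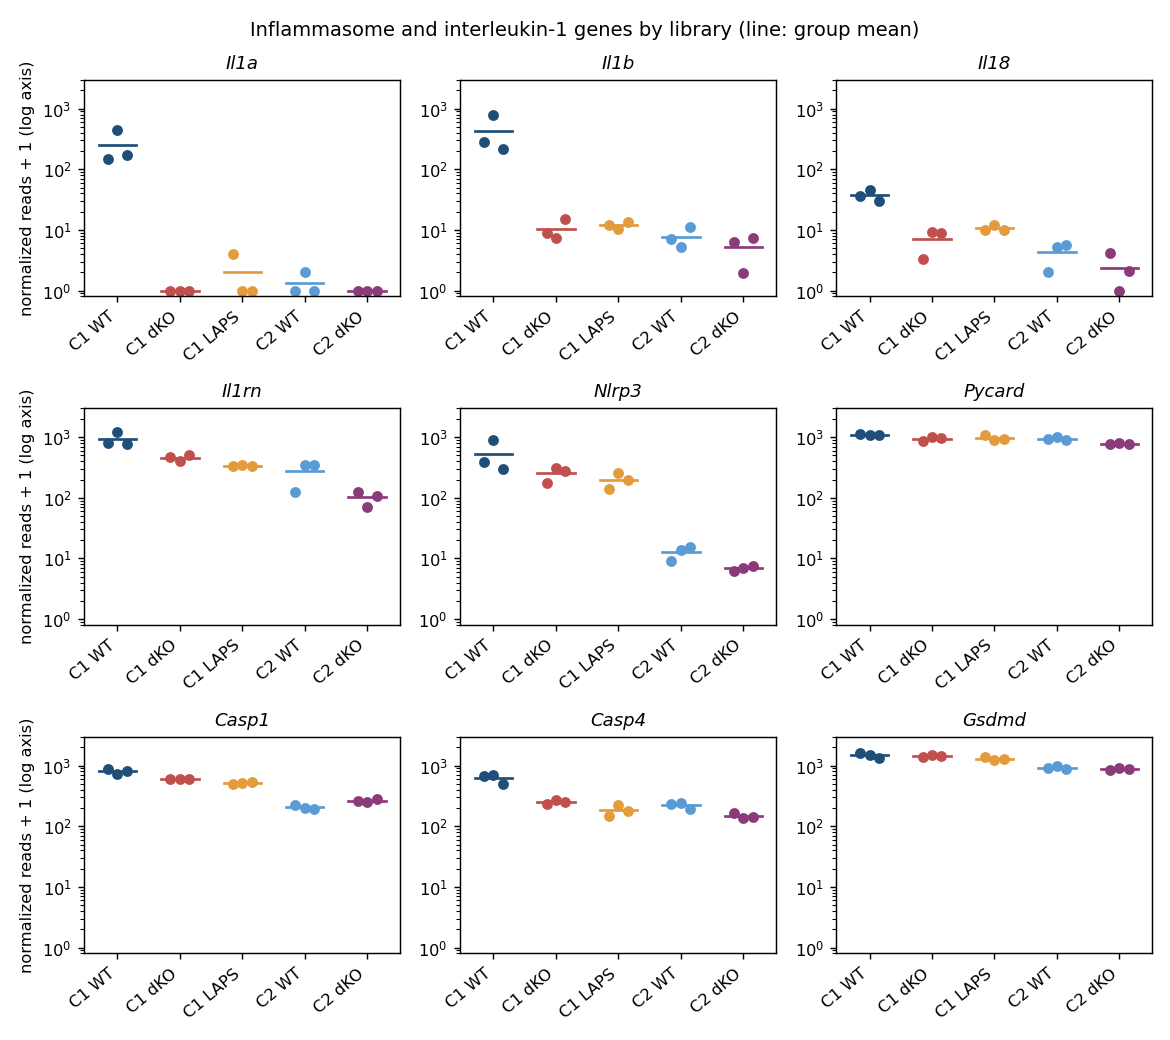
Normalized reads plus 1 (log axis) of the 9 genes in each of the 15 libraries, by group, with a line at the group mean and points in replicate order. Il1a, Il1b and Il18 stand high only in the 3 C1 WT libraries, Nlrp3 separates the clones, and Pycard and Gsdmd vary least.

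The promoter windows are shown for the genes whose values or searched words stand out: Il1a and Il1b, neighbouring genes with the largest falls in C1, Nlrp3, which separated the clones most next to them, and Pycard, which held a C/EBP word, alone among the 8 genes searched. The RefSeq windows of GRCm38.p6 run from 250 bases before to 50 after the annotated start, and 8 of the 9 genes, all but Gsdmd, matched with 12 windows. Both strands were searched for a C/EBP word, TTGCNNAA, where N is any base, which occurs in 10.8% of all 32851 windows. The NF-kB word GGANNTTCC occurs in 4.26% of them. The word of PU.1, a myeloid factor, is AGGAAGT and occurs in 9.35%. The word of the TATA box, TATAAA, occurs in 13.6%. Capitals mark a word found, and none of the words marked overlaps another.
Il1a, chr2:129309923-129310222, minus strand: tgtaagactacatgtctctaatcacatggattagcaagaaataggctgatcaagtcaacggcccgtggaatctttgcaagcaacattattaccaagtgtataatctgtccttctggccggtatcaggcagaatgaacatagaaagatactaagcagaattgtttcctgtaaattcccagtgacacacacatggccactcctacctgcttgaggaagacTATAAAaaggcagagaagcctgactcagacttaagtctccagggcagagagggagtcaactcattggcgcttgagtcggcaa
Il1b, chr2:129371090-129371389, minus strand: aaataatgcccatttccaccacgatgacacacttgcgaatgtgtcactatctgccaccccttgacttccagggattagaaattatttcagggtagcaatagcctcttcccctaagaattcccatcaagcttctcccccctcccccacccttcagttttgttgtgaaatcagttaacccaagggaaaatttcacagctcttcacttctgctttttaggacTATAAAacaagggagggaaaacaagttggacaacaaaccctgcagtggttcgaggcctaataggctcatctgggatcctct
Nlrp3, the upstream one of its 2 windows, chr11:59541319-59541618, plus strand: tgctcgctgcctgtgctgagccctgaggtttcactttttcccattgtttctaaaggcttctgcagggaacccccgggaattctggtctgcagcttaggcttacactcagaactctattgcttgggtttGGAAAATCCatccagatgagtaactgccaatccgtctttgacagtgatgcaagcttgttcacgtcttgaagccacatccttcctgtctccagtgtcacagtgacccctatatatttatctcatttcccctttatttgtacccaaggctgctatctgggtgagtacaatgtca
Pycard, chr7:127993818-127994117, minus strand: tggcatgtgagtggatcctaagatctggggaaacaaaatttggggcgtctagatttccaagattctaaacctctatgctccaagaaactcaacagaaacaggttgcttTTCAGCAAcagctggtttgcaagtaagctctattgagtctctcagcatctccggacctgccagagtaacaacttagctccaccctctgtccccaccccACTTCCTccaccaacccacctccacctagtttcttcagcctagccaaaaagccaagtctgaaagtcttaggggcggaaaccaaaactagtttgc
The Il1a and Il1b windows each held a TATA box word, beginning 32 and 31 bases before the start. The Nlrp3 window held the NF-kB word and the Pycard window the C/EBP and PU.1 words, all on the opposite strand. The TATA word also lay on the opposite strand in the Il18 window and in 1 of the 3 windows of Il1rn. The Casp1 window and both windows of Casp4, which overlap each other, held none of the 4 words. A match describes letters and is no evidence of binding.

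**Figure D2:**
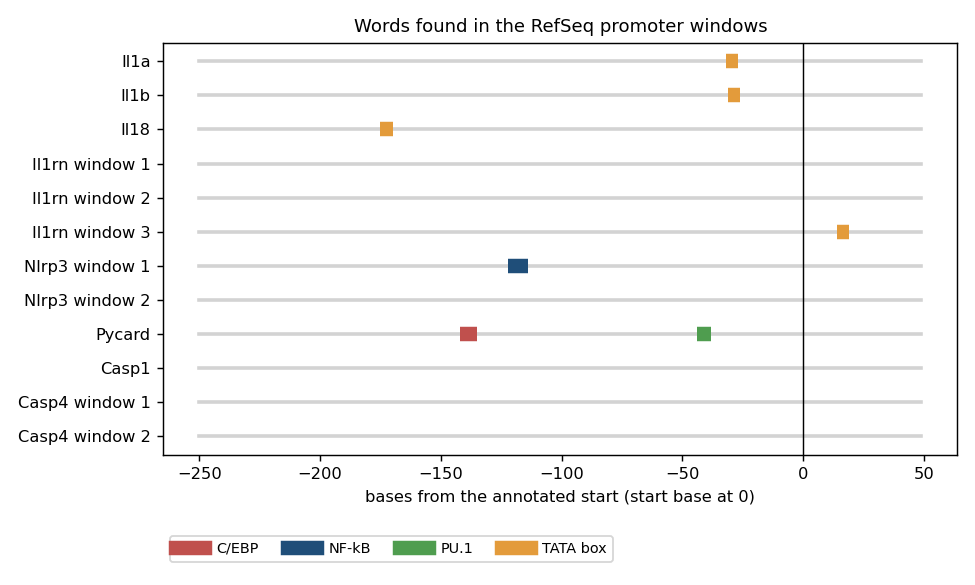
Positions of the 4 searched words along the 12 RefSeq promoter windows of 8 genes, in bases from the annotated start (start base at 0). The TATA word sits just before the start in Il1a and Il1b, and the sole C/EBP word in these 12 windows is that of Pycard.

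Il1a encodes interleukin-1α, an alarmin that acts without caspase-1 cleavage. The gene lies on chromosome 2 from 129299610 to 129309972 on the minus strand. Its normalized reads were 144.5, 449 and 171 in C1 WT replicates 1, 2 and 3. The 3 dKO libraries of C1 had 0 reads, and the LAPS libraries had 3.05, 0 and 0. In C2, the WT libraries had 0, 1.05 and 0 and the dKO libraries 0 in each. Only C1 WT cells therefore rose above the floor of 3 reads, with no overlap with any other group. Against that floor per library, which covers counting error only, Il1a was at least 83.2-fold lower in C1 dKO and at least 89.5-fold lower in LAPS cells. It was at least 86.1-fold lower in C2 WT than in C1 WT cells. These bounds rest in part on C1 WT replicate 2, and without that library they were 51.5-fold, 55.4-fold and 53.3-fold. The adjusted p-values in limma were 3.1e-08, 9.2e-08 and 3.3e-08. Over the 8 alternatives, edgeR and DESeq2 among them, they reached up to 0.0011, 0.012 and 0.0030. Il1a passed the filter only through the C1 WT libraries, so these differences were partly built into the selection. An annotated transcript on the opposite strand, Gm14023, shares 11.2% of the exonic bases of Il1a and reached 14.7 normalized reads at most. The strand setting of the counting is not given in the sources used here.

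Il1b encodes interleukin-1β, the main secreted product of inflammasome activation. It lies on chromosome 2 from 129364570 to 129371139, on the same strand as Il1a. C1 WT replicates 1, 2 and 3 had 278, 779 and 215 normalized reads. The C1 dKO libraries had 7.93, 6.29 and 14.1, and the LAPS libraries 11.2, 9.22 and 12.8. The C2 WT libraries had 5.98, 4.19 and 10.1, and the C2 dKO libraries 5.23, 0.97 and 6.44. C1 WT libraries were thus apart from all others, while the low groups overlapped each other in part. In C1 the mean fell 44.9-fold from WT to dKO, a log2 fold change of -5.18 ± 0.52 (SE, limma adjusted p = 1.3e-06). LAPS cells were 38.4-fold below C1 WT cells (log2 fold change -4.92, limma adjusted p = 2.3e-06). Between the parental clones the difference was 62.8-fold (log2 fold change -5.61, limma adjusted p = 3.3e-07). Without C1 WT replicate 2 these ratios of means were 26.1-fold, 22.3-fold and 36.5-fold. In C2 the log2 fold change was -0.71 with a 95% interval from -1.82 to 0.40 (limma adjusted p = 0.31), at no more than 11 reads in any library. The difference between the clones was 4.47 on the log2 scale (limma adjusted p = 0.00030). Il1bos, an antisense gene, shares 1.31% of the exonic bases of Il1b and had at most 3.06 normalized reads.

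Il18 encodes interleukin-18, which induces interferon-γ. It lies on chromosome 9 from 50554827 to 50581840. Its normalized reads were 34.8, 45.1 and 28.5 in C1 WT, 2.27, 8.39 and 7.94 in C1 dKO and 9.14, 11.1 and 9.12 in LAPS libraries. In C2 it had 1, 4.19 and 4.58 in WT and 3.14, 0 and 1.07 in dKO libraries, so the C2 dKO group lay at the floor. Again C1 WT libraries stood above all others, but Il18 passed the filter only through them, so this was partly built into the selection. In normalized reads the LAPS libraries lay above all dKO libraries of C1. In reads, LAPS replicate 1 and C1 dKO replicate 3 both had 9. Il18 fell 5.83-fold in C1 dKO cells, by 2.49 ± 0.54 on the log2 scale (SE, limma adjusted p = 0.0018). LAPS cells were 3.70-fold below C1 WT cells (limma adjusted p = 0.019). That call was lost without C1 WT replicate 2 (adjusted p = 0.069), LAPS replicate 1 (0.052) or LAPS replicate 3 (0.054), and with a pseudocount of 0.1 (0.17). The step from dKO to LAPS was 0.72 on the log2 scale with a 95% interval from -0.42 to 1.87 (limma adjusted p = 0.53). In C2 no library exceeded 5 reads, and a knockout effect was not detectable at this depth. The difference between the clones was not called (limma adjusted p = 0.14). It was called with a pseudocount of 5 (adjusted p = 0.00745) and without C2 dKO replicate 2 (0.043).

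Il1rn, the gene of the receptor antagonist, lies on chromosome 2 from 24336853 to 24351494. C1 WT libraries had 805, 1210.4 and 772 normalized reads, dKO libraries 465, 402 and 507, and LAPS libraries 333, 348 and 333. In C2, WT libraries had 121.5, 351 and 347 and dKO libraries 125.5, 69.0 and 107. The 3 groups of C1 did not overlap, whereas C2 WT replicate 1 lay within the range of the C2 dKO libraries. Il1rn fell 2.03-fold in C1, by 0.99 ± 0.32 on the log2 scale (SE, limma adjusted p = 0.023). Without C1 WT replicate 2 or C1 dKO replicate 2, the adjusted p became 0.099 or 0.077. In C2 it fell 2.72-fold, by 1.32 on the log2 scale (limma adjusted p = 0.0040). The clones did not differ by a called amount (difference -0.33, limma adjusted p = 0.64), but without C2 WT replicate 1 the difference was -0.83 (adjusted p = 0.048). That library was 2.86-fold below the next for Il1rn, and its summed neutrophil markers were 50785 normalized reads beside 91358 and 82475 in the other C2 WT libraries. Its summed monocyte and macrophage markers were 20352 normalized reads beside 21416 and 20646. The part of these marker levels in the Il1rn value was not tested. LAPS cells were 2.75-fold below C1 WT cells (limma adjusted p = 0.0026) and had a log2 value of -0.43 against dKO cells (95% interval -1.11 to 0.25, limma adjusted p = 0.53).

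The balance of the antagonist and the cytokine was followed as Il1rn reads per Il1b read. This ratio was 2.89, 1.55 and 3.59 in C1 WT and 58.7, 63.9 and 35.9 in C1 dKO libraries. LAPS libraries had ratios of 29.8, 37.8 and 26.1. In C2, WT libraries had ratios of 20.3, 83.8 and 34.4 and dKO libraries 24.0, 71.1 and 16.7. Every library outside C1 WT thus had at least 16.7 Il1rn reads per Il1b read, and the C2 groups overlapped. These are ratios of reads and not of reads per length, and outside C1 WT they rest on few Il1b reads, at most 16 in a C1 dKO, 14 in a LAPS and 11 in a C2 library.

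**Figure D3:**
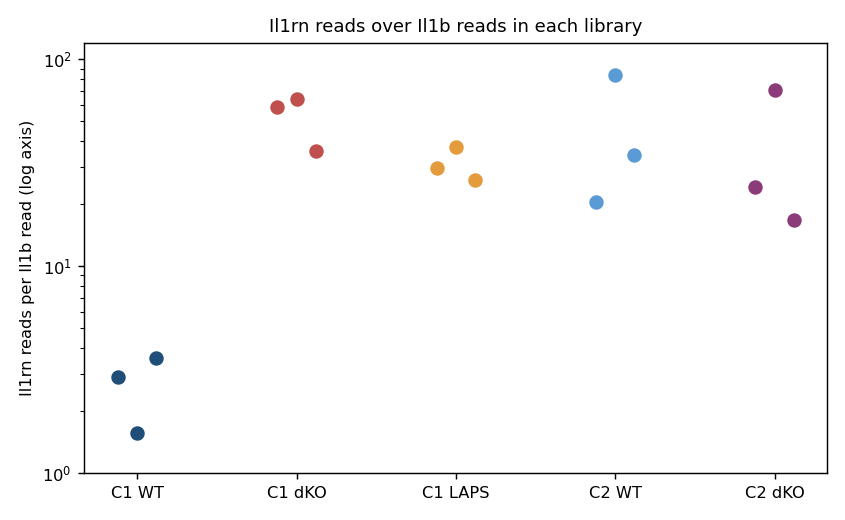
Il1rn reads per Il1b read (log axis) in each library by group, with points in replicate order. The 3 C1 WT libraries lie between 1.55 and 3.59, below all 12 others.

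Nlrp3 encodes the sensor that starts the canonical inflammasome. It lies on chromosome 11 from 59541568 to 59566956. Its normalized reads were 384, 909 and 293 in C1 WT, 173, 313 and 273 in C1 dKO and 140.2, 251 and 199 in LAPS libraries. In C2 they were 7.97, 12.6 and 14.7 in WT and 5.23, 5.83 and 6.44 in dKO libraries. The clones were separated without overlap, and C1 WT replicate 3 lay below dKO replicate 2 of C1. C2 WT cells were 45.1-fold below C1 WT cells, a log2 difference of -5.24 ± 0.36 (SE, limma adjusted p = 1.1e-08). The knockout values of -0.93 in C1 and -0.86 in C2 on the log2 scale did not pass the threshold (limma adjusted p = 0.052 and 0.069). In C1, 4 of the 8 alternatives gave a call, edgeR (adjusted p = 0.019) and DESeq2 (0.046) among them. Without C1 WT replicate 2 the value was -0.45 (adjusted p = 0.28), and without C1 WT replicate 3 it was called at 0.012. LAPS cells were 2.69-fold below C1 WT cells (limma adjusted p = 0.011), a call that was lost without C1 WT replicate 2 (adjusted p = 0.060) or LAPS replicate 1 (0.056). Without C1 WT replicate 2, the ratio of means was 28.9-fold between the WT clones and 1.72-fold between LAPS and C1 WT cells.

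Pycard encodes ASC, the adaptor that links sensors to caspase-1, and lies on chromosome 7 from 127989708 to 127993867. C1 WT libraries had 1107, 1066 and 1077 normalized reads, dKO libraries 853, 1008 and 966, and LAPS libraries 1074, 909.8 and 937. In C2, WT libraries had 922, 1021 and 889 and dKO libraries 774, 799.99 and 779. Levels lay in a narrow range across all groups, and WT and dKO libraries did not overlap in either clone. Pycard fell 1.20-fold in C2, by 0.26 ± 0.08 on the log2 scale (SE, limma adjusted p = 0.018). That call was lost without C2 WT replicate 2 (adjusted p = 0.094) or C2 dKO replicate 3 (0.051). In C1 the log2 fold change was -0.20 with a 95% interval from -0.38 to -0.03 (limma adjusted p = 0.060), and it was called without C1 dKO replicate 2 (0.041). Between WT clones it was -0.20 (limma adjusted p = 0.061), and it was called without C2 WT replicate 2 (0.035). A gene model on the opposite strand, Gm45205, shares 12.8% of the exonic bases of Pycard and had at most 2.92 normalized reads.

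Casp1, the gene of caspase-1, lies on chromosome 9 from 5298517 to 5307265. Its normalized reads were 868, 736 and 803 in C1 WT, 599.1, 598.9 and 601.02 in C1 dKO and 499, 508 and 544 in LAPS libraries. In C2 they were 224, 200.3 and 189 in WT and 265, 249.8 and 279 in dKO libraries. From WT to dKO cells, Casp1 went in opposite directions in the clones, with no overlap between WT and dKO libraries in either. In C1 it fell 1.34-fold (log2 fold change -0.42 ± 0.09 SE, limma adjusted p = 0.0015). In C2 it rose 1.29-fold (log2 fold change 0.37 ± 0.09 SE, limma adjusted p = 0.0033). The difference between the clones was 0.79 on the log2 scale (limma adjusted p = 0.00019), and each of the 8 alternatives and 12 fits with 1 library left out called it. C2 WT cells were 3.93-fold below C1 WT cells (limma adjusted p = 8.1e-11). LAPS cells were 1.55-fold below C1 WT cells (limma adjusted p = 3.6e-05) and had a log2 value of -0.21 against dKO cells (95% interval -0.40 to -0.03, limma adjusted p = 0.20).

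Casp4 neighbours Casp1 on chromosome 9, from 5308828 to 5336783. C1 WT libraries had 668, 695 and 497 normalized reads, dKO libraries 228, 269.6 and 248 and LAPS libraries 144, 219 and 179.7. In C2, WT libraries had 230.0, 241 and 194 and dKO libraries 162, 137 and 142. WT and dKO libraries did not overlap in either clone, and both clones fell. The fall was 2.50-fold in C1 (log2 fold change -1.30 ± 0.16 SE, limma adjusted p = 8.3e-06) and 1.51-fold in C2 (log2 fold change -0.59 ± 0.16 SE, limma adjusted p = 0.0080). The difference between the clones was 0.72 on the log2 scale (limma adjusted p = 0.024), and 5 of the 12 fits without 1 library gave 0.057 to 0.067. These left out C1 WT replicate 1 or 2, C1 dKO replicate 1, C2 WT replicate 3 or C2 dKO replicate 1. LAPS cells were 3.42-fold below C1 WT cells (limma adjusted p = 3.5e-07). Against dKO cells their value was -0.47 on the log2 scale (95% interval -0.81 to -0.13, limma adjusted p = 0.11), and no LAPS library reached the lowest dKO library.

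Gsdmd encodes gasdermin D, the pore-forming executor of pyroptosis, and lies on chromosome 15 from 75862327 to 75867408. Its normalized reads were 1611, 1509.8 and 1314 in C1 WT, 1365, 1487 and 1429.8 in C1 dKO and 1373, 1229.7 and 1265 in LAPS libraries. In C2 they were 907, 999 and 862 in WT and 859, 925 and 884 in dKO libraries. WT and dKO libraries overlapped in both clones, and C1 libraries lay above all C2 libraries. The knockout values were -0.05 on the log2 scale in each clone, with 95% intervals from -0.22 to 0.13 in C1 and from -0.23 to 0.12 in C2 (limma adjusted p = 0.70 and 0.66). The C1 value turned to 0.06 with quantile normalization. C2 WT cells were 1.60-fold below C1 WT cells (log2 fold change -0.68, limma adjusted p = 6.4e-06).

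**Figure D4:**
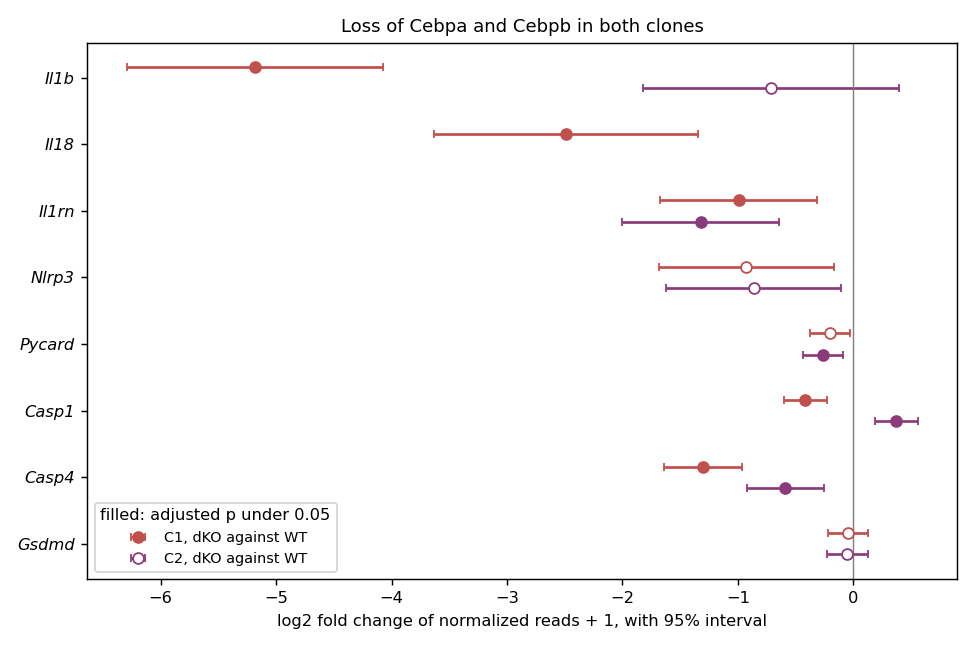
Log2 fold changes of normalized reads plus 1 from WT to dKO cells in C1 and C2, with 95% intervals from limma, filled where the adjusted p was under 0.05. Il1a in both clones and Il18 in C2 are left out because a group lay at the floor. Il1b at -5.18 and Il18 at -2.49 changed most in C1, and Casp1 lies on opposite sides of 0 in the clones.

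**Figure D5:**
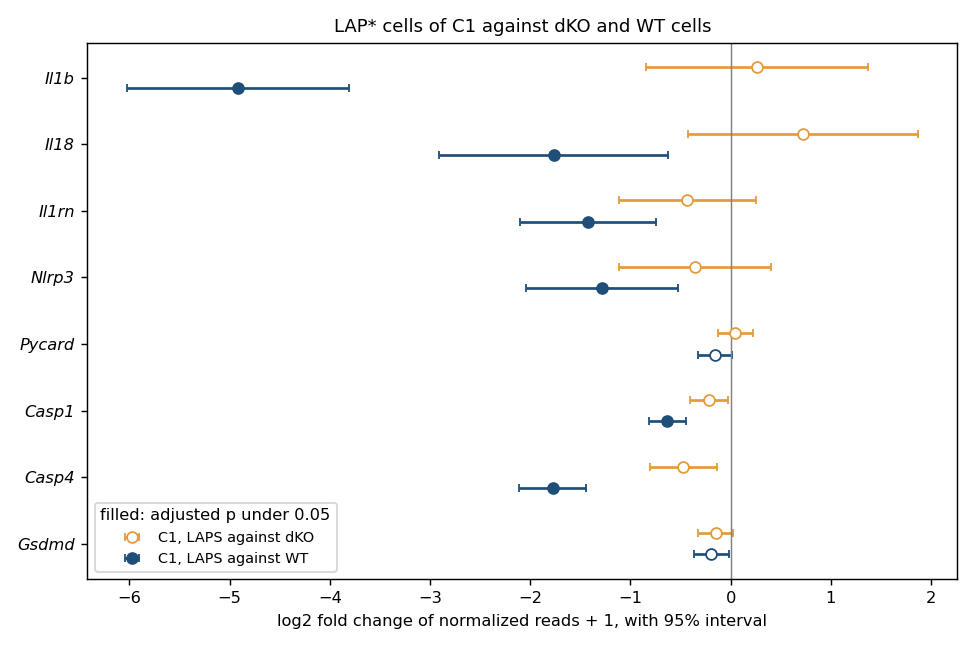
Log2 fold changes of LAPS cells against dKO and against WT cells of C1, with 95% intervals from limma, filled where the adjusted p was under 0.05. No value against dKO cells is filled, and 6 of the 8 genes drawn lie below WT cells with a call. Il1a is left out because a group lay at the floor.

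Within C1 WT, replicate 2 stood apart for 4 of the 9 genes. It was 2.62-fold above the next library for Il1a, 2.80-fold for Il1b, 2.37-fold for Nlrp3 and 1.50-fold for Il1rn. Over all genes tested, 4.70% were at least 1.5-fold above both other C1 WT libraries in replicate 2. The summed monocyte and macrophage markers were 57939 normalized reads in that library and 55622 and 45677 in the others. Ly6c2 and Lyz2, with C1 WT means of 27913 and 14023, lead this sum, so it says little of the weaker markers. What set this culture apart was not tested. Over the 6 fits with 1 library of C1 WT or dKO left out, the log2 fold change of Il1b stayed between -5.55 and -4.63, and Il1b was called in each.

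Per kilobase of merged exons, Gsdmd was the most abundant of the 9 genes in C1 WT cells with 622 ± 63.4 (SD, n = 3), and Casp1 followed with 536 ± 44.2. On this length the ranges of these genes overlapped. The order of Gsdmd and Casp1 above the other 7 genes also held per kilobase of the principal transcript. In C2 WT cells, Gsdmd (388 ± 29.4) and Pycard (248 ± 18.1) led on both lengths. On reads per kilobase, Il18 was lowest in C1 WT and Il1a lowest in C2 WT cells.

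Across the 15 libraries, Il1a and Il1b had a Pearson r of 0.95 on log2 normalized reads, the highest between members beside Nlrp3 with Gsdmd at 0.96. Casp1 correlated with Nlrp3 at 0.93 and with Gsdmd at 0.94. These correlations describe 15 libraries of 5 groups that share clones and size factors. The genes most like Il1a over the 15 libraries were Marco (r = 0.98), a macrophage scavenger receptor, Lox and Fstl1. Those most like Il1b were Arhgef3, Marcks and Psap, and those most like Il18 were Serpinb9, Atp13a2 and Tln2. For Il1rn they were Sdr42e1, C1rl and Tlr8, and for Nlrp3 Ccdc166, Il10ra, the interleukin-10 receptor, and Cfp. For Casp1 they were 9330159M07Rik, Siglece and Slc6a12, and for Casp4 Oas1b, Plgrkt and Ptprj. Gsdmd was closest to Ccdc166, C4b and Mefv, the pyrin sensor gene, and Pycard to Ehmt2, Nckipsd and Lrp5, with r of 0.91 for each of these 3.

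The wider pathway was followed on lists of other genes. Their counts stand beside 17.1% of all genes called higher and 19.9% lower in C1 dKO cells, and 17.4% and 20.1% in C2. Of 11 IL-1 family receptors and decoys, 7 were tested, and 2 were higher and 3 lower in C1 dKO cells against 1 and 3 in C2. The 1 receptor higher in C2 lies near the share over all genes. Il1rl2, the receptor of interleukin-36, fell in C1 from 1026 ± 24.8 to 128 ± 16.1 normalized reads (log2 fold change -3.00, limma adjusted p = 1.7e-05). In C2 it fell from 180 ± 33.3 to 1.75 ± 2.25 (log2 fold change -6.35, limma adjusted p = 5.8e-09). Il1rap, the shared accessory chain of the IL-1 receptors, fell in C1 and C2, with log2 fold changes of -0.58 and -0.71 (limma adjusted p = 0.0041 and 0.00083). Il18rap, the accessory chain of the interleukin-18 receptor, rose in both, by 0.60 and 1.71 (limma adjusted p = 0.0052 and 3.6e-07). Il1rl1, the receptor of interleukin-33, had 17.5 ± 1.51 normalized reads in C1 dKO libraries and 0 in all WT libraries and C2 dKO libraries, at least 5.36-fold higher in C1 dKO than in WT cells. It passed the filter only through the C1 dKO libraries, so its difference from them was partly built into the selection, and without it 1 of 6 receptors was higher in C1. In LAPS against dKO cells, 2 of the 7 receptors were lower and 0 higher, where 3.03% and 1.43% of all genes were called, and 1 of 6 was lower without Il1rl1.

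Of 6 other IL-1 family ligands, 2 were in the table and 1 passed the filter. Il33, an alarmin, went from 30.7 ± 7.60 to 6.86 ± 1.38 normalized reads in C1 (log2 fold change -2.001, limma adjusted p = 0.0014). It passed only through the C1 WT libraries, so this difference was partly built into the selection. In C2 it stayed at no more than 7 reads.

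Of 14 genes of IL-1 receptor signalling, all tested, 1 was higher and 6 lower in C1 dKO cells, and 1 and 3 in C2. The 3 lower in C2 lie near the 20.1% over all genes. Irak2, a kinase-like signalling adaptor, fell in C1 and C2, with log2 fold changes of -1.31 and -1.57 (limma adjusted p = 1.7e-05 and 3.2e-06). Tollip, a negative regulator, also fell in both, with changes of -0.37 and -0.45 (limma adjusted p = 0.0011 and 0.00021). Irak3, a brake on Toll and IL-1 receptor signalling, had 48.6 ± 14.6 normalized reads in C1 WT and 3.01 ± 0.79 in C1 dKO cells. In C2 it had 472 ± 36.3 in WT and 725 ± 47.7 in dKO cells, a log2 value of 0.62 that missed the threshold (limma adjusted p = 0.097). The difference between the clones was 4.23 on the log2 scale (limma adjusted p = 1.5e-06). Irak1 was higher in C1 dKO cells by 0.28 on the log2 scale (limma adjusted p = 0.0069) and differed between the clones (difference -0.34, limma adjusted p = 0.020).

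Of 14 other inflammasome sensors, 12 were tested, with 1 higher and 7 lower in C1 dKO cells and 2 higher and 5 lower in C2. Over all genes these shares were 17.1% and 19.9% in C1 and 17.4% and 20.1% in C2. Nlrc4, whose product is recruited by the NAIP receptors of bacterial flagellin, fell in both clones. C1 WT cells had 626 ± 10.8 normalized reads of it and C1 dKO cells 201.4 ± 13.5, and C2 WT cells had 347 ± 13.6 and C2 dKO cells 129 ± 16.8 (limma adjusted p = 4.8e-09 and 2.8e-08). Nod1 fell in both as well, with log2 fold changes of -0.81 and -1.36 (limma adjusted p = 0.0082 and 0.00014). Nlrp12 was higher in both, at 25 reads or fewer (limma adjusted p = 0.034 and 0.043). It passed the filter only through the C1 dKO libraries, so its C1 difference was partly built into the selection, and without it 0 of 11 sensors were higher in C1. Nlrp10 differed between the clones (difference -2.11, limma adjusted p = 0.018) without a call in either. In C2 WT against C1 WT cells, 11 of the 12 sensors were lower and 0 higher, beside 21.3% and 19.7% of all genes.

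Of 18 inflammasome regulators and genes of pyroptosis, 17 were tested. In C1 dKO cells 2 were higher and 5 lower, and in C2 4 and 5. These counts lie near the shares over all genes, 17.1% and 19.9% in C1 and 17.4% and 20.1% in C2. The guanylate-binding protein gene Gbp3 fell in C1 and C2, with log2 fold changes of -4.22 and -4.10 (limma adjusted p = 1.2e-07 and 2.1e-07). Gbp2 fell in C1, from 246 ± 161 to 5.53 ± 3.37 normalized reads, (limma adjusted p = 1.3e-06), and was at 8 reads or fewer in C2. Gbp5 fell in C1 from 156 ± 95.4 to 6.12 ± 3.25 (limma adjusted p = 0.00015). Gbp5 passed only through the C1 WT libraries, so this fall was partly built into the selection, and without it 4 of 16 genes were lower in C1. P2rx7, the ATP-gated channel that triggers NLRP3, fell in C1 and C2, with log2 fold changes of -2.43 and -1.04 (limma adjusted p = 3.8e-05 and 0.025). C1 WT libraries varied widely for the 3 Gbp genes, from 358 to 1060 normalized reads for Gbp3.

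Markers of monocytes and macrophages moved with the cytokine genes in C1. Of 11 markers, 10 were tested, and 9 were lower and 0 higher in C1 dKO cells, where 19.9% and 17.1% of all genes were called. Their summed normalized reads ran from 45677 to 57939 in C1 WT, 27536 to 33170 in C1 dKO and 24331 to 27038 in LAPS libraries. In C2 they ran from 20352 to 21416 in WT and from 15166 to 18116 in dKO libraries, with 2 markers higher and 2 lower, near the 17.4% and 20.1% over all genes. Fcgr1 was at the floor in C2 WT and Cx3cr1 in C2 dKO cells. Whether the falls of Il1a, Il1b and Il18 in C1 follow from the share of such cells was not tested.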

How the data were processed

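RNA-seq of 5 groups of 3 libraries was analysed from 1 deposited table. The submitters' processing notes name STAR 2.5.3a, HTSeq 0.10.0, DESeq2 1.26.0 and mm10. The deposited values are a signal per gene, the normalized read count, which the authors made by dividing reads by 1 size factor per library. The gene annotation and the strand setting of the counting are not given in the sources used here. Of 53384 rows, 5 name no gene, held 22.4% to 26.2% of the reads and were left out. Another 3 columns, named LAPS_C2, match no sample and stayed out, so LAP* cells are described in C1 only.

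Reads were recovered from the step of each column: whole reads, to a tolerance of 0.1, came out for 99.99% of nonzero values in the lowest library, and size factors ran from 0.747 to 1.13. Replicates were compared by chi-square tests of their counts, and no pair agreed within sampling noise. A group with no library above 3 reads was at the floor, which, like all intervals on counts, covers counting error only.

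The 15 libraries entered a single limma fit (version 3.58.1, R 4.3.3) of log2(normalized reads + 1), with a mean for each of the 5 groups and an intensity trend in the prior variance, tested beforehand on simulated data. Fold changes on this scale understate those of low genes. The recovered reads were also given to edgeR 4.0.16 and to DESeq2 1.42.0. The other alternatives used a replicate block, only the compared groups, quantile normalization, no filter, or a pseudocount of 0.1 or 5, and each library was left out in turn. Positions and lengths are those of GENCODE vM21 on GRCm38/mm10.

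The text names the 9 genes, then of each pathway list at most 4 genes called in both clones or called for the difference between clones, by mean absolute log2 fold change, and the 3 genes of highest correlation with each of the 9. Members and lists were chosen with earlier results of these data known. Tables and plots used Python 3.11.15, pandas 2.3.3, numpy 2.4.6 and matplotlib 3.10.9.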

Additional observations from a re-analysis of the deposited data

Results flagged for a closer look

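The effect of the double knockout differed between the clones by the interaction term of limma for Il1b, Casp1 and Casp4, none of which lay at the floor in a whole group. For Il1b the C2 change minus the C1 change was 4.47 on the log2 scale (limma adjusted p = 0.00030). Il1b had at most 11 reads in any C2 library, so a fall of the C1 size could not have been seen there. For Casp1 the difference was 0.79 (limma adjusted p = 0.00019), with all 3 dKO libraries below all WT libraries in C1 and above them in C2. For Casp4 it was 0.72 (limma adjusted p = 0.024), a difference between falls of unequal size.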

How the results depend on the processing

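Over the 8 alternatives and the fits that left out 1 library, each called fold change of a gene kept its direction. Reversed values were all uncalled: Gsdmd in C1 turned to 0.061 with quantile normalization, and the difference between the clones for Nlrp3 turned to -0.025 with a pseudocount of 0.1. With 1 library left out, Gsdmd ran from -0.129 to 0.0179 in C1 and from -0.0989 to 0.0074 in C2, its difference between clones from -0.0691 to 0.0775, that of Nlrp3 from -0.413 to 0.401, and Pycard in LAPS against dKO cells from -0.0251 to 0.0978. With only the groups compared, 1 gene, Il1rn, was called lower in LAPS against dKO cells (limma adjusted p = 0.044). Leaving out each library, the genes called higher for the difference between clones numbered 2 to 5 and those called lower 0 to 1, 2 to 4 were lower in C2 dKO than in C2 WT cells, and 4 to 7 were lower in LAPS than in WT cells of C1. Leaving out a C1 WT library removed Il1a from the test, since it then had fewer than 3 libraries above the filter. The replicate numbers did not pair the samples, since in no comparison did all 3 same-numbered pairs correlate above 0.1. With the replicate block, Nlrp3 was also called lower, so the genes called lower in dKO cells numbered 7 in C1 and 4 in C2. Depth limits Il1a, Il1b and Il18 in C2, where few reads leave little room to measure a fall.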

Other observations

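Other lineage markers moved with the knockout in C1. Over all genes, 17.1% were called higher and 19.9% lower in C1 dKO cells, 17.4% and 20.1% in C2 dKO cells, and 1.43% and 3.03% in LAPS against dKO cells. All 10 neutrophil markers were higher in C1 dKO than in WT cells and all 10 were lower in LAPS than in dKO cells, while in C2 dKO cells 3 were higher and 2 lower. The C2 counts lie near the shares over all genes, and without Retnlg, which passed the filter only through C2 WT, 1 of 9 was lower. Their summed normalized reads ran from 21730 to 28538 in C1 WT, 89238 to 112038 in C1 dKO and 35660 to 40260 in LAPS libraries.

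Of 6 eosinophil markers tested, 6 were higher in C1 dKO cells, where their sum ran from 8043 to 15648 normalized reads beside 136 to 236 in C1 WT libraries. In C2 dKO cells 4 were higher and 1 lower. Il5ra passed the filter only through C1 dKO, so its difference was partly built into the selection, and without it 5 of 5 were higher in C1 and 3 in C2. Of 4 mast cell and basophil markers tested, 4 were higher in C1 dKO cells, and 2 were higher and 1 lower in C2. Of 3 erythroid and megakaryocyte markers tested, 2 were higher and 1 lower in C1 dKO cells, and 2 were higher in C2. Gata1 likewise passed only through C1 dKO, and without it 1 of 2 was higher and 1 lower in C1, and 1 was higher in C2. Of 2 lymphoid markers tested, 1 was higher and 1 lower in each clone. Of 8 markers of transformed myeloid progenitors, 4 were higher and 2 lower in C1 dKO cells, and 4 were higher and 0 lower in C2. The 2 lower in C1 lie near the 19.9% of all genes called lower there. Their part in the values of the inflammasome and interleukin-1 genes was not tested.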
